A study of Bos taurus with 8 samples.

Results

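Cadherins are calcium-dependent adhesion molecules that hold neighbouring cells together. Classical cadherins bind a like molecule on the next cell and are tied to the actin cytoskeleton through catenins, while protocadherins and the large Fat and Dachsous cadherins sort cells and set their polarity with little or no catenin binding. In the mesenchyme, CDH11 (OB-cadherin) and CDH2 (N-cadherin) are the familiar classical members, and CDH1 (E-cadherin) is best known from epithelia. The genes described here are those of the expression table named CDH with a number, those whose name begins with PCDH, and FAT1 to FAT4, DCHS1 and DCHS2 where a row was given. *CDH5* and *CDH15* were left out by that rule. It gave 28 of 18871 genes, and all 28 had at least 20 counts in total over the clones and were tested. They comprised 4 type I and 7 type II classical cadherins, 3 atypical cadherins, 4 Fat and Dachsous genes, 7 non-clustered protocadherins and 3 clustered protocadherins. Another 17 symbols of the RefSeq list that match the same names were not analysed here.

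RNA-seq was done on 8 single-cell clones from the stromal vascular fraction (SVF) of adult male Angus-cross cattle (steers). The 4 IMF preadipocyte clones (IMF1 to IMF4) came from intramuscular fat and the 4 SF preadipocyte clones (SF1 to SF4) from subcutaneous fat, with no other treatment separating the groups. Each sample is described as the offspring of 1 cell, obtained by limiting dilution, and this was not tested here. Clones were picked for fast growth, a fibroblast-like shape and the ability to form fat, so the groups describe those cells and not the whole SVF. The design text in the labels places sequencing after adipogenic induction, whereas the study's methods describe harvest from growth medium before confluence. The number of steers also differs between these sources. The study took each clone of a group from an SVF sample, and SVFs were isolated sample by sample, but no label ties a clone to an animal. The p-values therefore measure the spread between these clones, which holds any differences between the samples they came from.

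Total counts ranged from 19654917 to 29308882 per clone. Levels are given as CPM (a count scaled to the TMM-normalized library), or as TPM where genes of different length are compared. A count of 3, taken as the floor, corresponded to between 0.0981 and 0.165 CPM, which covers counting error only. In 4 members, *CDH6*, *CDH17*, *CDH20* and *PCDH20*, all 8 counts were even numbers, as in 9.96% of all genes, and no source says how such counts arose. Of 9 preadipocyte markers, 7 were detected in every clone, among them *PDGFRA* and *PDGFRB*. *CD34* was higher in the IMF clones, with 2 counts or fewer in each SF clone, and *DLK1* had 0 in IMF2. *PPARG*, the master regulator of fat cell formation, and *THY1* were lower in the IMF clones (log2 fold change -1.35, adjusted p = 0.00365, and -1.30, adjusted p = 0.0336), and the other 6 were not called. Markers of other lineages moved with the groups as well. All 13 skeletal muscle markers tested were higher in the IMF clones, where their summed level ran from 1105 to 1244 CPM against 2.65 to 33.9 CPM in the SF clones, and *MYOD1*, *MYOG*, *CKM*, *CHRNA1* and *MYOM2* had 0 counts in every SF clone. Of 15 endothelial markers tested, 14 were higher in the IMF clones, and *KDR*, *EMCN*, *SELE* and *CD93* had 0 counts in every SF clone. All 15 summed to 341 to 388 CPM in IMF against 28.8 to 38.0 CPM in SF clones. Most of the SF sum was *CLDN5*, the marker not called, at 24.6 to 52.9 CPM in IMF and 23.6 to 35.4 CPM in SF clones. Of 7 smooth muscle and pericyte markers tested, 4 were lower in the IMF clones, *ACTA2*, *CNN1*, *TAGLN* and *CSPG4* (log2 fold changes from -1.09 to -2.03). *MYH11* and *MCAM* were higher and *ABCC9* was not called. In these bulk samples fewer cells of a type and less RNA per cell cannot be told apart. The part of these lineages in the cadherin differences was not tested.

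Cadherin expression differed between the IMF and SF preadipocyte clones in both directions. *CDH1*, *CDH26*, *FAT3*, *PCDH17*, *PCDH18* and *PCDHA13* were higher in the IMF clones. *CDH11*, *CDH13*, *CDH20*, *FAT1*, *FAT4*, *DCHS1* and *PCDH11X* were lower. A gene was called at an adjusted p-value under 0.05 and a log2 fold change of at least 1 in size (edgeR's quasi-likelihood test, Benjamini-Hochberg adjustment over all 18339 genes tested). With this rule 13 of the 28 genes (46.4%) were called, beside 8.82% of all genes tested. The 6 called higher made up 21.4% of the family, beside 4.78% of all genes, and the 7 called lower made up 25.0%, beside 4.04%. In 14 of the 28 (50.0%) the groups did not overlap, beside 32.1% of all genes. The median log2 fold change of the family was -0.29, and that of all genes tested was -0.03.

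**Figure D1:**
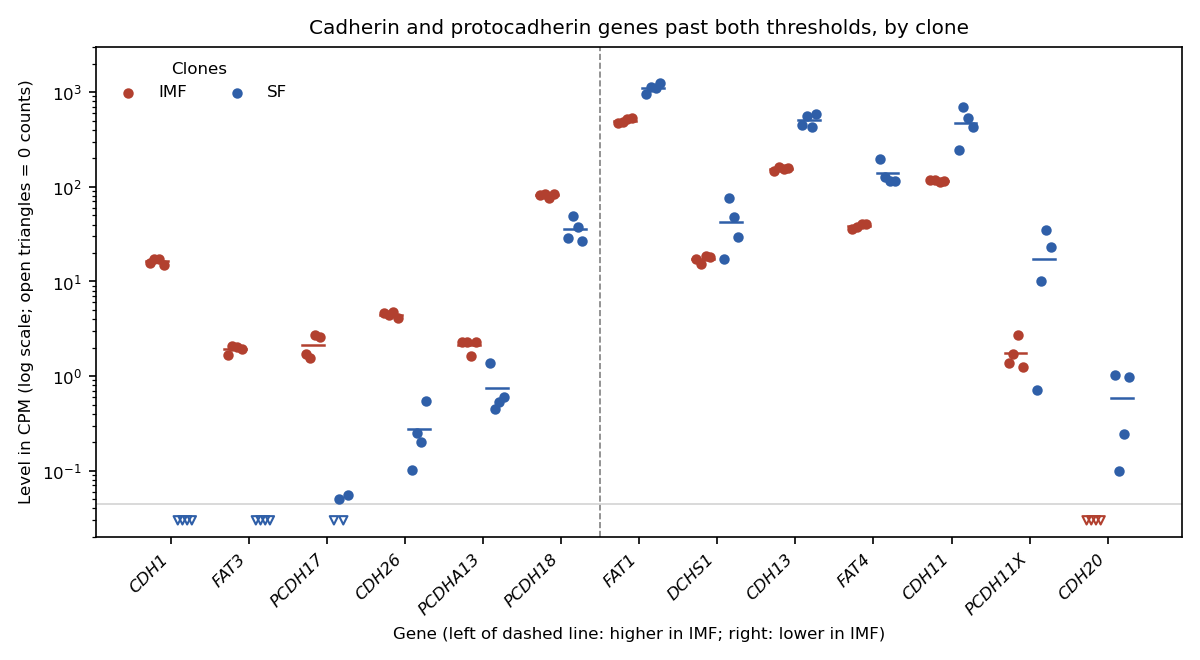
Level in CPM (log axis) of the 13 genes past both thresholds, with 1 point per clone, horizontal lines at group means of at least 0.05 CPM and open triangles for 0 counts. *CDH1* and *FAT3* had 0 counts in all 4 SF clones and *CDH20* had 0 in all 4 IMF clones, while SF1 lay within or below the IMF clones for *DCHS1* and *PCDH11X*.

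Among the type I classical cadherins, *CDH1* separated the groups completely. *CDH1* encodes E-cadherin, the adhesion molecule of epithelial adherens junctions, and lies on chromosome 18 from 36046665 to 36119368 (ARS-UCD2.0, RefSeq). It had 15.8, 17.3, 17.4 and 14.8 CPM in IMF1 to IMF4, from 311 to 528 counts, and 0 counts in all 4 SF clones. The IMF clones thus held a narrow band and no SF clone gave a single count. The level in the IMF clones, 16.3 ± 1.25 CPM (SD, n = 4), was at least 110-fold higher than 3 counts in each SF clone (adjusted p = 1.13e-05). Its neighbour *CDH3*, which encodes P-cadherin, ends 31158 bases before *CDH1* begins. *CDH3* was detected in all 8 clones, at 3.66 to 4.48 CPM in IMF against 3.94 to 5.54 in SF clones, and the groups overlapped (log2 fold change -0.30, 95% interval -0.69 to 0.08, adjusted p = 0.231).

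The other epithelial genes measured were detected in both groups. Of 12 epithelial markers listed, 8 were tested and all 8 had counts in every clone. The basal keratin gene *KRT14* was higher in the IMF clones (log2 fold change 1.10, adjusted p = 0.0227) and the other 7 were not called. The sum of all 8 was 4699 to 7369 CPM in IMF against 3255 to 5811 in SF clones, most of it *KRT14* in the IMF clones. The 7 genes not called summed to 1775, 1197, 2033 and 1600 CPM in IMF1 to IMF4 and 1836, 1778, 1845 and 2756 CPM in SF1 to SF4, and these ranges overlapped. *GRHL2*, a transcription factor of epithelial cells, had 214 to 789 counts in the IMF clones and 703 to 1209 counts in the SF clones (log2 fold change -1.04, adjusted p = 0.149). *EPCAM*, *KRT8*, *KRT18* and *KRT5* were not analysed here. The part of these transcripts in the *CDH1* level was not tested.

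*CDH2* encodes N-cadherin, the main classical cadherin of muscle precursors, neurons and many fibroblasts. It had 59.3, 63.0, 64.7 and 56.3 CPM in IMF1 to IMF4 and 71.4, 92.2, 108 and 169 CPM in SF1 to SF4. Every SF clone lay above every IMF clone, but SF1 stood only just above them. The log2 fold change of -0.86 (standard error of the fit, SE, 0.24; adjusted p = 0.0289) did not reach the fold threshold, and without SF1 it was -1.02 (adjusted p = 0.00750) and did. *CDH4*, which encodes R-cadherin, ran from 0.331 to 1.44 CPM over the 8 clones and its groups overlapped (log2 fold change 0.86, 95% interval -0.07 to 1.78, adjusted p = 0.16).

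Of the 7 type II classical cadherins, 2 were lower in the IMF clones and 5 were not called. *CDH11*, a cadherin of mesenchymal cells and osteoblasts (chromosome 18, 32682889 to 32837030), carried the largest signal of this class. Its level was 118, 117, 112 and 115 CPM in IMF1 to IMF4 and 245, 704, 529 and 427 CPM in SF1 to SF4. The SF clones were all above the IMF clones, with a 2.88-fold range among themselves, whereas the IMF clones were nearly level. The mean was 116 ± 2.58 CPM against 476 ± 192 CPM (SD, n = 4 each), 4.12-fold higher in the SF clones (log2 fold change -2.04, SE 0.28, adjusted p = 0.00127).

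*CDH20*, a type II cadherin known from the nervous system, was present at trace levels only. It had 0 counts in every IMF clone and 20, 2, 6 and 18 counts in SF1 to SF4, so SF2 was itself under the floor of 3. The SF mean was at least 4.53-fold higher than 3 counts in each IMF clone (adjusted p = 0.027). Without SF1 the adjusted p was 0.0586 and without SF4 it was 0.0671. *CDH18*, another type II cadherin of the nervous system, had 1 to 5 counts in the IMF clones and 0, 23, 60 and 20 counts in SF1 to SF4. SF1 was thus the exception among the SF clones, and *CDH18* was not called with it (adjusted p = 0.0619) but was without it (log2 fold change -3.78, adjusted p = 0.00479). *CDH24* was 1.82-fold higher in the SF clones, with 5.80 to 10.6 CPM against 3.57 to 4.31 CPM, and its log2 fold change of -0.87 (adjusted p = 0.019) missed the fold threshold. *CDH6*, *CDH7* and *CDH19* had at most 5.24 CPM in any clone and overlapping groups, and their adjusted p-values ran from 0.515 to 0.891. *CDH19* is a marker of Schwann cell precursors and ranged from 0.262 CPM in IMF2 to 5.24 CPM in both IMF4 and SF1.

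Of the 3 atypical cadherins, *CDH13* was lower and *CDH26* higher in the IMF clones, and *CDH17* was not called. *CDH13* encodes T-cadherin, a membrane-anchored receptor for adiponectin and low-density lipoprotein with no cytoplasmic part (chromosome 18, 9138128 to 10154231). It had 147, 162, 154 and 158 CPM in IMF1 to IMF4 and 453, 556, 433 and 587 CPM in SF1 to SF4. No SF clone came near the IMF clones, and the IMF and SF means of 155 ± 6.25 and 507 ± 75.7 CPM (SD, n = 4 each) differed 3.27-fold (log2 fold change -1.71, SE 0.12, adjusted p = 3.87e-05). *CDH26* went the other way. It had 4.65, 4.42, 4.71 and 4.09 CPM in IMF1 to IMF4, and 2, 5, 5 and 10 counts in SF1 to SF4, equal to 0.103 to 0.551 CPM. The IMF clones were 16.1-fold higher (log2 fold change 4.01, SE 0.41, adjusted p = 0.000306). *CDH17*, a cadherin of liver and intestine, had 0 counts in IMF2 and IMF3 and at most 18 counts in any clone, and its groups overlapped (adjusted p = 0.668).

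All 4 Fat and Dachsous genes passed both thresholds, 3 of them lower in the IMF clones and *FAT3* higher. FAT4 and DCHS1 are a receptor and ligand pair that signals planar cell polarity between neighbouring cells, and FAT1 is a giant cadherin that acts on the actin cytoskeleton and on Hippo signalling. *FAT4* (chromosome 17, 32339653 to 32530581) had 35.9, 37.8, 40.1 and 40.0 CPM in IMF1 to IMF4 and 198, 128, 115 and 115 CPM in SF1 to SF4. The groups lay far apart and SF1 was the highest clone (3.61-fold higher in SF; log2 fold change -1.85, SE 0.18, adjusted p = 0.000235). *FAT1* (chromosome 27, 16420184 to 16546113) had 473, 482, 522 and 529 CPM in IMF against 963, 1141, 1120 and 1256 in SF clones. The difference was 2.23-fold (log2 fold change -1.16, SE 0.11, adjusted p = 0.000178), with the lowest SF clone well above the highest IMF clone.

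*DCHS1* was less even. Its level was 17.4, 15.5, 18.4 and 18.3 CPM in IMF1 to IMF4 and 17.1, 75.5, 48.3 and 29.8 CPM in SF1 to SF4. SF1 lay inside the range of the IMF clones, so the groups overlapped (log2 fold change -1.30, SE 0.39, adjusted p = 0.0415). The call was lost without SF2 (log2 fold change -0.87, adjusted p = 0.0793), without SF3 (0.0797) and without IMF1 (0.0812), IMF2 (0.0945), IMF3 (0.0858) or IMF4 (0.0858). *FAT3*, a Fat gene known from neuronal patterning, had 35, 63, 45 and 41 counts in IMF1 to IMF4 and 0 in every SF clone. Its level of 1.93 ± 0.176 CPM (SD, n = 4) in the IMF clones was at least 13.1-fold higher than the floor (adjusted p = 0.000523).

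**Figure D2:**
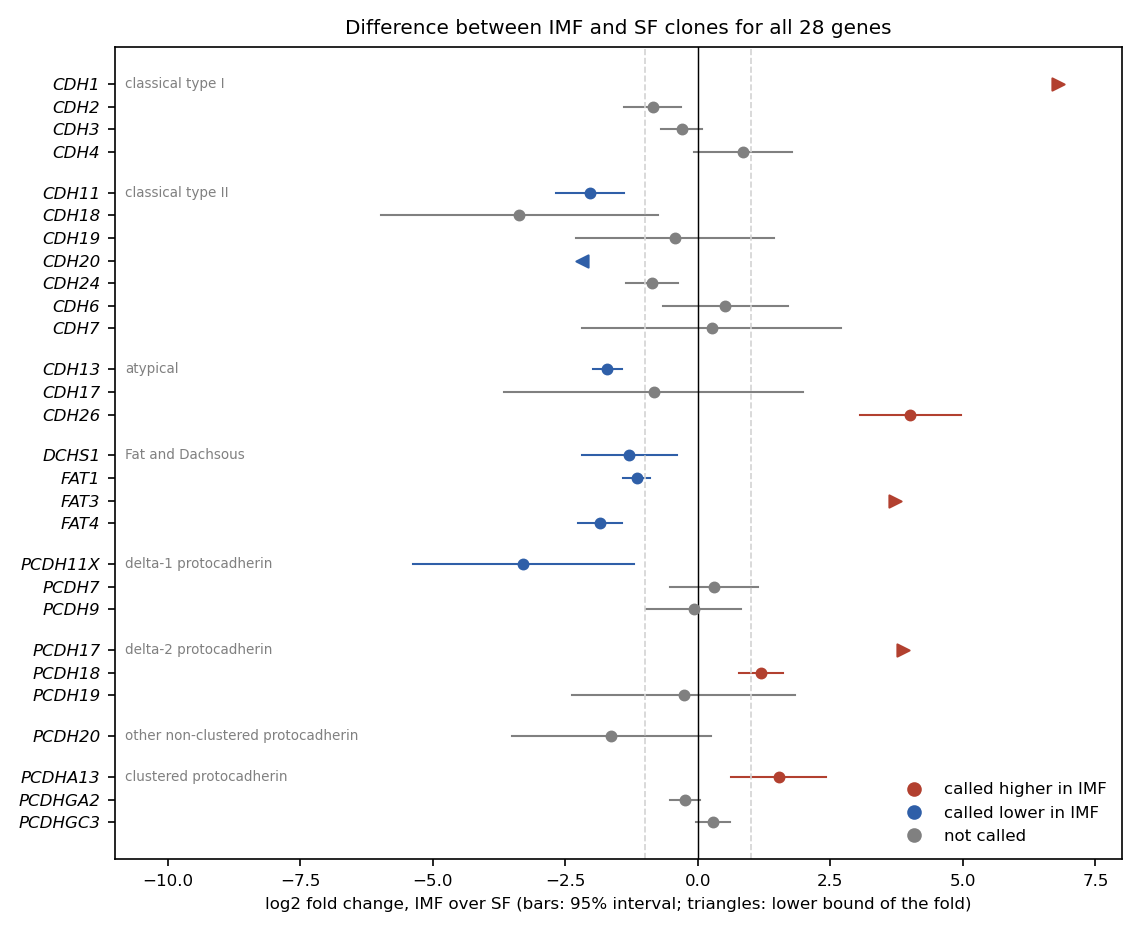
log2 fold change (IMF over SF) of all 28 genes, ordered by class, with 95% intervals from the edgeR fit; triangles give the log2 of the lowest fold that the floor of 3 counts allows. The 4 genes drawn as triangles are *CDH1*, *FAT3*, *PCDH17* and *CDH20*, and dashed lines mark the fold threshold.

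Protocadherins of the delta classes carry conserved intracellular motifs and are studied mostly in the nervous system. Of 3 delta-2 protocadherins, 2 were higher in the IMF clones and *PCDH19* was not called. *PCDH18* (chromosome 17, 20288010 to 20302088) had 82.5, 83.5, 76.1 and 83.6 CPM in IMF1 to IMF4 and 29.2, 48.9, 37.8 and 26.5 CPM in SF1 to SF4. The groups were well separated and the IMF clones 2.29-fold higher (log2 fold change 1.19, SE 0.18, adjusted p = 0.00201). *PCDH17* had 36, 48, 60 and 55 counts in IMF1 to IMF4, and 0, 1, 0 and 1 counts in SF1 to SF4. Its IMF level of 2.16 ± 0.594 CPM (SD, n = 4) was at least 14.6-fold higher than the floor (adjusted p = 0.000395). *PCDH19* had 2 to 34 counts among the IMF clones and 9 to 36 among the SF clones, which overlapped (adjusted p = 0.867).

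Among the 3 delta-1 protocadherins, *PCDH11X* was lower in the IMF clones and the other two were not called. *PCDH11X* had 1.39, 1.73, 2.72 and 1.24 CPM in IMF1 to IMF4 and 0.719, 10.2, 35.3 and 23.4 CPM in SF1 to SF4. SF1 was the lowest of all 8 clones while the other 3 SF clones were above every IMF clone, a 49.1-fold range within the SF group (log2 fold change -3.29, SE 0.91, adjusted p = 0.0294). The adjusted p was 0.0671 without SF3 and 0.0627 without SF4, and 0.0720, 0.0726, 0.0591 and 0.0777 without IMF1, IMF2, IMF3 and IMF4. *PCDH7*, which encodes a protocadherin also called NF-protocadherin, was held within 61.1 to 64.0 CPM in the IMF clones but spread over 85.4, 37.0, 20.6 and 60.5 CPM in SF1 to SF4 (log2 fold change 0.30, 95% interval -0.53 to 1.14, adjusted p = 0.596). *PCDH9* was near 1 CPM in both groups (0.975 ± 0.309 against 1.04 ± 0.366 CPM, SD, n = 4 each). *PCDH20* had 18, 0, 20 and 12 counts in IMF1 to IMF4 and 28 to 48 counts in the SF clones. Its groups did not overlap, yet it was not called (log2 fold change -1.63, adjusted p = 0.185), and without IMF2 its log2 fold change of -1.22 was (adjusted p = 0.0391).

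Clustered protocadherins lie in tandem arrays in which many variable first exons are joined to shared constant exons, and neurons use the resulting isoforms to tell self from other cells. The 3 rows present, *PCDHA13*, *PCDHGA2* and *PCDHGC3*, are all on chromosome 7. *PCDHA13* had 2.30, 2.32, 1.63 and 2.28 CPM in IMF1 to IMF4 and 1.39, 0.450, 0.528 and 0.606 CPM in SF1 to SF4. All IMF clones were above all SF clones, and the lowest IMF clone was close to SF1 (2.87-fold higher in IMF; log2 fold change 1.52, SE 0.39, adjusted p = 0.0232). The adjusted p passed 0.05 without IMF1 (0.0602), IMF2 (0.0624), IMF4 (0.0541), SF2 (0.0506), SF3 (0.0617) or SF4 (0.0568). *PCDHGC3*, the gamma-C3 isoform gene, was among the more abundant members, with 63.8 to 72.1 CPM in IMF against 43.5 to 70.6 in SF clones (log2 fold change 0.28, 95% interval -0.04 to 0.60, adjusted p = 0.182). *PCDHGA2* had 54.9 to 60.7 CPM and 57.3 to 86.7 CPM (log2 fold change -0.24, 95% interval -0.53 to 0.04, adjusted p = 0.195). How reads of the shared exons were divided between isoform genes is not stated, so these 3 values are uncertain as to isoform. The deposited length of *PCDHGA2*, 62661 bases, also exceeds the 3186 bases that the gene spans in the RefSeq list, and that of *PCDH20*, 4407 bases, exceeds 3872, so what these rows cover is uncertain. The ranks, shares and sums by TPM given below use these lengths and are uncertain to that extent.

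Per unit of gene length, a few of the 28 genes made up most of their summed level in both groups. The desmosomal cadherin gene *DSG3* is not among the 28. It had 371 ± 168 TPM in IMF and 496 ± 58.0 TPM in SF clones (SD, n = 4 each) and was not called. Among the 28, *CDH13* was highest in the IMF clones at 68.4 ± 3.17 TPM (SD, n = 4). *FAT1* (47.4 ± 4.15 TPM) and *CDH11* (46.7 ± 3.17 TPM) followed with overlapping ranges, and *PCDH18* (25.8 ± 1.26), *PCDHGC3* (24.0 ± 1.06) and *CDH2* (23.5 ± 2.66 TPM) came next, with ranges that overlapped between neighbours in this order. *CDH1* ranked 7 at 10.3 ± 1.24 TPM, below the range of *CDH2*. In the SF clones the order was *CDH13* at 220 ± 32.4 TPM, *CDH11* at 193 ± 90.9 TPM, *FAT1* at 104 ± 11.8 TPM and *CDH2* at 41.2 ± 12.4 TPM. *CDH11* ran from 95.8 to 306 TPM there and overlapped both *CDH13* and *FAT1* (88.2 to 116 TPM). The sum over the 28 genes was 253 to 287 TPM in the IMF clones and 466 to 807 TPM in the SF clones.

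The makeup of that sum differed as well. *CDH11* took 17.5 ± 0.636% of the family's TPM in the IMF clones and 29.5 ± 8.01% in the SF clones (SD, n = 4 each), and *CDH13* took 25.6 ± 0.643% and 35.6 ± 4.95%. *FAT1* took 17.7 ± 0.796% and 16.9 ± 1.89%. *PCDH18* took 9.69 ± 0.463% and 1.79 ± 0.38%, and *PCDHGC3* 9.02 ± 0.309% and 3.13 ± 0.393%. Shares of a sum depend on each other, so the larger *CDH11* and *CDH13* levels in the SF clones lower the other shares there by construction.

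**Figure D3:**
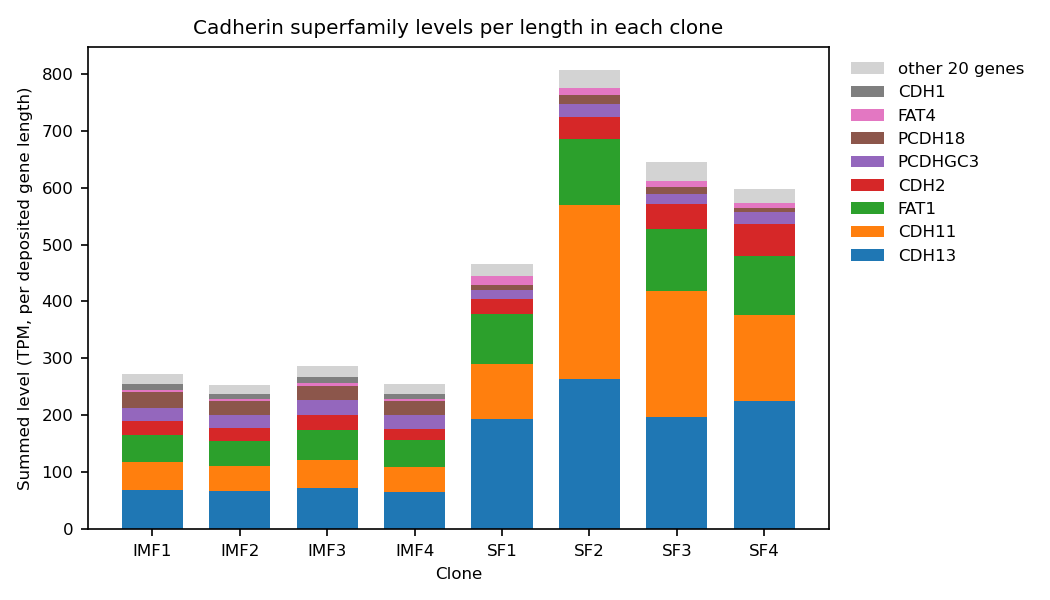
TPM summed over the 28 genes in each clone, stacked by gene, with 8 genes in colour and the rest in grey. The bars reach 253 to 287 TPM in the IMF clones and 466 to 807 TPM in the SF clones, and *CDH13*, *CDH11* and *FAT1* make up the lower part of each bar.

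Levels of the members with the most counts were more alike among the IMF clones than among the SF clones. In the 10 members that averaged 100 counts or more in each group, the coefficient of variation of CPM over 4 clones had a median of 4.73% in IMF and 28.6% in SF, and it was larger in SF for 10 of 10. Over all 10948 genes at that level the medians were 6.60% and 13.4%, and SF was larger in 74.7%. The gap was widest for *PCDH7* (2.25% against 55.5%), *DCHS1* (7.79% against 59.4%) and *CDH11* (2.23% against 40.3%), and *FAT1* was the most even gene among the SF clones (10.7%). SF1 was the highest or lowest SF clone in 8 of the 10 members, beside 64.1% of all genes at that level. It had the lowest *CDH11*, *CDH2*, *DCHS1*, *FAT1*, *PCDHGA2* and *PCDHGC3* and the highest *FAT4* and *PCDH7*.

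**Figure D4:**
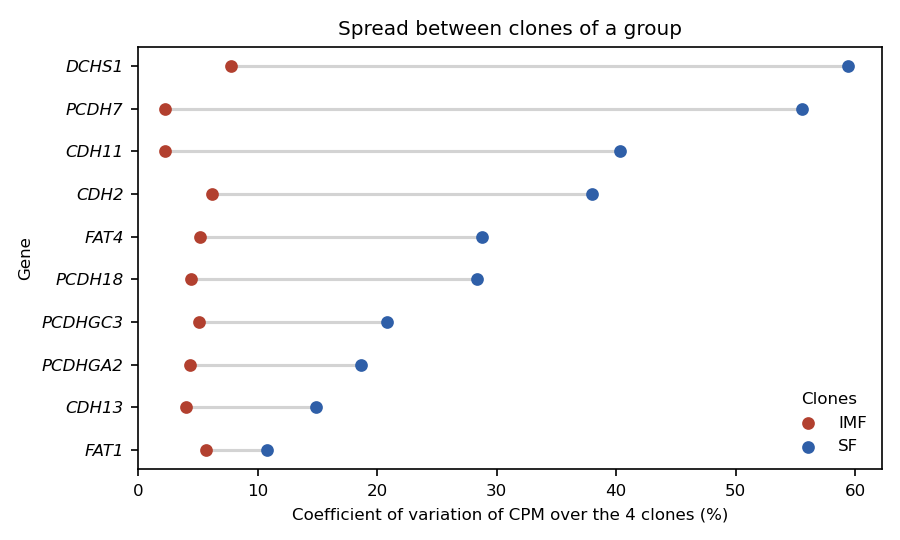
Coefficient of variation of CPM over the 4 IMF clones and over the 4 SF clones for the 10 genes that averaged 100 counts or more in each group. Every gene lies further right for SF than for IMF, from 10.7% for *FAT1* to 59.4% for *DCHS1* in the SF clones.

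Genes that work with cadherins were counted from 4 lists, of which 64 genes were tested. Of these, the IMF clones had 3 higher and 4 lower, or 10.9%, beside the 8.82% of all genes tested. With no minimum fold, 11 were higher and 16 lower at an adjusted p under 0.05, or 42.2% of the 64 genes, beside 25.8% of all genes. The median log2 fold change of the 64 genes was -0.23, beside -0.03 for all genes. Among the 20 catenins and other linkers, which tie cadherin tails to actin, 2 were lower and 18 were not called. *CTNNA2*, the alpha-catenin of neurons, had 8, 10, 10 and 2 counts in IMF1 to IMF4 and 56, 119, 45 and 30 counts in SF1 to SF4 (log2 fold change -3.26, SE 0.58, adjusted p = 0.00426). *PDZD2*, a scaffold gene with PDZ domains, was lower by a log2 fold change of -1.44 (adjusted p = 0.00468). The core catenins, named here after their values were seen, were expressed in all clones with no difference past both thresholds. *CTNNB1* (beta-catenin) had 323 ± 14.6 CPM in IMF against 362 ± 117 in SF clones (adjusted p = 0.596), *CTNNA1* (alpha-E-catenin) had 145 ± 2.30 and 146 ± 4.71 CPM (adjusted p = 0.928), and *CTNND1* (p120-catenin) had 134 ± 6.77 and 108 ± 7.41 CPM (log2 fold change 0.30, adjusted p = 0.0215).

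Among 19 genes of other adhesion families tested, 2 were higher and 1 was lower. *NCAM1*, the neural cell adhesion molecule that also marks muscle precursors, had 184 ± 9.31 CPM in IMF against 43.0 ± 26.5 in SF clones (SD, n = 4 each), with every IMF clone above every SF clone (log2 fold change 2.10, SE 0.42, adjusted p = 0.00762). *CADM3*, a nectin-like molecule, had 86 to 128 counts in the IMF clones and 2 to 17 in the SF clones (log2 fold change 2.93, adjusted p = 0.00251). *CELSR3*, a seven-pass cadherin of the planar polarity pathway, was lower in the IMF clones (1.57 ± 0.408 against 4.18 ± 0.716 CPM, adjusted p = 0.00378).

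Of the 14 repressors and proteases that control cadherins, 1 was lower and 13 were not called. The called gene was the membrane protease gene *ADAM15*, at 21.3 ± 0.91 CPM in IMF against 43.5 ± 5.22 in SF clones (log2 fold change -1.03, SE 0.093, adjusted p = 0.000157). It lay just past the fold threshold, and its log2 fold change was -0.94 without SF1 and -0.89 with total-count scaling. The list held 8 tested repressors of *CDH1* transcription, all expressed in both groups and none called. At an adjusted p under 0.05, *TCF4* (log2 fold change 0.86, adjusted p = 0.00093), *ZEB2* (0.44, adjusted p = 0.0165) and *TCF3* (0.38, adjusted p = 0.0295) were higher in the IMF clones. With total-count scaling *TCF4* was also past the fold threshold (adjusted p = 0.00106). *TWIST1* (log2 fold change -0.91, adjusted p = 0.0106) and *ZEB1* (-0.66, adjusted p = 0.00782) were lower. *TWIST2* had the largest log2 fold change of the 8, -1.68, with an adjusted p of 0.0549. It had 2.57 to 3.04 CPM in the IMF clones and 2.16, 9.86, 18.4 and 5.62 CPM in SF1 to SF4, so SF1 alone lay below the IMF clones. Without SF1 both *TWIST2* (log2 fold change -2.01, adjusted p = 0.00595) and *TWIST1* were past both thresholds, and *TWIST1* was so without SF4 as well. *SNAI1* and *SNAI2* had log2 fold changes of 0.35 and 0.42 (adjusted p = 0.483 and 0.0662). Among the 11 Fat and Dachsous partners tested, 1 was higher and 10 were not called. That gene was *FJX1*, which encodes the mammalian relative of the Four-jointed kinase that modifies Fat and Dachsous in flies. It had 703, 961, 726 and 663 counts in IMF1 to IMF4 and 79, 152, 136 and 182 in SF1 to SF4, or 32.4 ± 1.11 against 6.80 ± 2.60 CPM (SD, n = 4 each; log2 fold change 2.25, SE 0.24, adjusted p = 0.0004). SF1 was the lowest clone, and no SF clone came near the IMF clones. With no minimum fold, *DVL2* was also higher (log2 fold change 0.37, adjusted p = 0.0463). *VANGL1*, *PRICKLE2*, *DVL1*, *DVL3*, *LIX1L*, *DLG5*, *WWC1* and *ATN1* were lower at an adjusted p under 0.05. Their log2 fold changes ran from -0.29 (*DVL3*) to -0.93 (*WWC1*), and their adjusted p-values from 0.00671 (*LIX1L*) to 0.0499 (*PRICKLE2*). *PRICKLE1* did not differ (adjusted p = 0.723).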

How the data were processed

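The labels and methods describe paired-end RNA-seq of 8 clones. Trimmomatic 0.39 was used by the authors for trimming, and alignment to ARS-UCD2.0 (HISAT2 in the methods, STAR 2.7.11a in the submitters' processing notes) was followed by counting per gene with featureCounts 2.0.2. They deposited raw counts and a gene length for each gene, which were used here. The annotation release, the strand setting and the treatment of multi-mapped reads are not given in the sources used here, and the methods call the libraries non-stranded while the labels mention dUTP, so reads of overlapping or antisense genes cannot be told apart. The authors also deposited group means as a signal, and a DESeq2 result with a base mean, log2 fold changes, a Wald score and p-values, none of which were used. The methods state that genes under 20 counts were left out, yet 532 such genes were in the table and were not tested here. A row with no gene name held 0.0148% to 0.0209% of the counts and was left out.

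Genes were tested with edgeR 4.0.16 (TMM, two-sided quasi-likelihood test, group as the single term) in R 4.3.3. The standard error is the unshrunken log2 fold change divided by the square root of the F statistic, and the 95% intervals use the same error. Against a group with 3 counts or fewer in every clone, a fold is a lower bound from 3 counts in each clone. TPM used the deposited lengths. Scripts were tested on simulated data. Members and gene lists were chosen with earlier results of these data known, and described in full were members past both thresholds and the most abundant 6 by TPM. The lists were catenins and linkers, other adhesion families, repressors and sheddases, Fat and Dachsous partners, and markers of 7 cell types. Of the lists not described in the text, 2 of 6 Schwann and neural genes tested were higher and 1 lower in the IMF clones, and 1 of 9 leukocyte genes was higher and 1 lower. Positions are RefSeq's for ARS-UCD2.0, whose list held 27 of the 28 members. Alternatives were DESeq2 1.42.0, limma-voom (limma 3.58.1), RLE or total-count scaling, no or a stricter low-count filter, testing against a log2 fold change of 1, no fold threshold, leaving out genes with only even counts, the clone number as a block, CPM in place of TPM and leaving out each clone. The IMF and SF clones share the numbers 1 to 4, but no source says that a number marks an animal.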

Additional observations from a re-analysis of the deposited data

Results flagged for a closer look

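Within each group of 4 clones, the highest or lowest level of each member was compared with the rest by Dixon's ratio of its gap to the whole range, against that ratio's 95% critical value, in 52 groups with more than 3 counts in a clone. In 6 of them 1 clone stood apart, where chance flags about 1 in 20. In SF1, *CDH24* had 10.6 CPM against 5.80 to 6.39 in the other SF clones, *FAT4* had 198 CPM against 115 to 128, and *PCDHA13* had 1.39 CPM against 0.450 to 0.606. In IMF3, *PCDH18* had 76.1 CPM against 82.5 to 83.6 in the other IMF clones and *PCDHA13* had 1.63 CPM against 2.28 to 2.32. In IMF2, *CDH3* had 4.48 CPM against 3.66 to 3.69. Leaving out SF1 or IMF3 did not change the calls of *FAT4*, *PCDH18* and *PCDHA13*.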

How the results depend on the processing

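None of the 13 called members changed direction under the alternatives run, and 7 of the 13, *CDH1*, *CDH11*, *CDH13*, *CDH26*, *FAT3*, *FAT4* and *PCDH17*, stayed past both thresholds in all of those that kept them. The 6 members called higher in IMF were 5 to 6 with 1 clone left out, and the 7 called lower were 5 to 8. Against a log2 fold change of 1, 3 members were lower, with *FAT1*, *DCHS1*, *PCDH11X* and *CDH20* lost, and 4 were higher, with *PCDH18* and *PCDHA13* lost. With the replicate block (clone number), 4 members were lower, without *CDH20*, *DCHS1* and *PCDH11X*, and 6 were higher. No source says what a number marks, and the deviations of same-numbered clones had correlations of -0.0093 to 0.139 over 4 pairs, beside -0.105 to 0.109 over 12 pairs of different numbers, so the numbers were not taken as pairs. Limma-voom did not call *DCHS1* or *PCDH11X* (5 lower), and DESeq2 added *CDH18* (8 lower). Partner genes called higher ran from 3 to 4 and lower from 4 to 5 with 1 clone left out. *DSG1* was added as higher without IMF2 and *ARVCF* without SF2, while *CDHR4* was added as lower without IMF1 and *WWC1* without SF2 or SF3. Among those lower, *ADAM15* was lost without SF1 and with total counts alone, and *TWIST2* was added without SF1, by DESeq2, by the stricter filter and without the even-count genes. With total counts alone 5 were higher, with *PKP2* and *TCF4* added, and *PKP2* was also added by DESeq2, limma-voom, without SF4 and without the even-count genes. Against a log2 fold change of 1, 2 were higher, with *NCAM1* lost, and 1 was lower, and with no fold threshold 11 were higher and 16 lower. Total-count scaling moved the all-gene median log2 fold change from -0.03 to 0.12 and the calls over all genes from 877 higher and 741 lower to 1078 and 539. *DCHS1* was then not called, and the other called members stayed so. Apart from the loss of genes by the filters, the cause of these changes was not tested. By CPM, not per length, *FAT1* ranked 1 and *CDH13* 2 in both groups. One group of *CDH1*, *CDH20*, *FAT3* and *PCDH17* lay at or under 3 counts in every clone, where depth sets the lowest fold given.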
